A study of Mus musculus with 15 samples.

Results

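The enzymes, transporters and regulators of glycolysis, the pentose phosphate pathway and the TCA cycle (citric acid cycle) were examined in mouse macrophages exposed to elongated mineral particles. The 53 genes were chosen by name, and all of them were among the 10653 genes of the deposited gene table and among the 10616 that could be tested. They comprised 29 genes of glycolysis and the fate of pyruvate, 7 of the pentose phosphate pathway and 17 of the TCA cycle and its filling reaction. The cells were MPI cells, a self-renewing macrophage culture from fetal liver of female C57BL6/J mice that depends on GM-CSF and is used as a model of alveolar macrophages. All 15 libraries came from cells grown with GM-CSF. There were 5 groups of 3 libraries. Control cells are labelled untreated, with no agent. Exposure lasted 24 h. Riebeckite was given as asbestos at 9 µg/cm² or as cleavage fragments at 40 µg/cm². Tremolite was given as asbestos at 5 µg/cm² or as cleavage fragments at 60 µg/cm². Riebeckite and tremolite are amphibole minerals, asbestos is their fibrous habit, and cleavage fragments are elongated but not fibrous. Per the labels, doses were matched by surface area, so the mass dose differs in every comparison of minerals or habits and its part in them cannot be told apart. Separate cultures are not stated for the 3 libraries of any group, and the spread on which the p-values rest may therefore be technical.

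Glycolysis breaks glucose down to pyruvate in the cytosol, and pyruvate is either reduced to lactate and exported or turned into acetyl-CoA by the mitochondrial pyruvate dehydrogenase complex. The pentose phosphate pathway branches off at glucose 6-phosphate, and its oxidative arm makes NADPH, which macrophages use to make oxidants and to keep glutathione reduced. The TCA cycle oxidises acetyl-CoA and supplies citrate and other intermediates for synthesis, and inflammatory activation of macrophages is known to shift expression of parts of these pathways.

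Levels are FPKM, fragments scaled by exon length and by the mapped total of the library, which sum to 257329 to 273570 per library, and the read depth behind them is unknown. The exon length was read as that of all annotated exons of a gene together, so ranks and shares between genes depend on the annotation. Differences are of log2(FPKM + 1) between group means, with adjusted p-values from limma over all 10616 genes and a threshold of 0.05. On this scale the change of low genes is understated. Unless another order is given, 4 differences in a row stand for riebeckite asbestos, riebeckite fragments, tremolite asbestos and tremolite fragments, each against the same 3 untreated libraries, which all 4 comparisons share. In bulk RNA, fewer cells of a type and less RNA per cell cannot be told apart. All 12 macrophage markers looked for were listed, with summed levels of 8569 to 10357 FPKM over the libraries. Of their 13 lines in the table (Itgam had 2), 8, 7, 7 and 8 were higher and 2, 2, 1 and 1 lower with the 4 particles. That is 61.5, 53.8, 53.8 and 61.5% higher and 15.4, 15.4, 7.69 and 7.69% lower. Of all tested genes 21, 15.3, 10 and 12.5% were higher and 24.3, 23.1, 13.9 and 15% lower. Siglecf, a lectin of alveolar macrophages, rose by 2.12, 2.27, 1.28 and 1.76 from 10.7 ± 1.05 FPKM (SD, n = 3), Chil3, a chitinase-like protein, fell with the riebeckite particles (-0.59 and -0.25), and Adgre1, which encodes F4/80, fell with all 4 (-0.20, -0.21, -0.16 and -0.26). Of 7 neutrophil markers 1 was listed, S100a8, at 25.7 to 31.3 FPKM in untreated cells, 54.3 to 58.5 with riebeckite asbestos, 50.6 to 52.4 with riebeckite fragments, 31.3 to 41.5 with tremolite asbestos and 26.5 to 29.6 with tremolite fragments. The table held none of 5 lymphocyte markers, 7 of erythroid and mast cells, 5 of hepatocytes and 7 of fibroblasts, epithelium and endothelium. Transcripts of the mitochondrial genome made up 8.65% ± 0.181 (SD, n = 3) of summed FPKM in untreated cells and 6.44% ± 0.419 with riebeckite asbestos, 7.91% ± 0.395 with riebeckite fragments, 8.15% ± 0.172 with tremolite asbestos and 8.42% ± 0.281 with tremolite fragments. The part of the macrophage markers, of S100a8 and of the mitochondrial share in the results below was not tested.

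The 250 bases before the RefSeq start of 5 members are shown to give the reader examples. They are 5 of the 16 members called in the same direction with all 4 particles, and were chosen after their values were seen. The share of all tested genes called so is not given, and the 4 comparisons share the same untreated libraries, so the 16 are a description only. The windows are RefSeq sequences of GRCm38.p6, written 5′ to 3′ in the direction of the gene. Slc2a1 (chr4:119108711-119137983) has its window at chr4:119108495-119108744 on the forward strand, and Hk2 (chr6:82725025-82774454) at chr6:82774455-82774704 on the reverse strand. Pgam1 (chr19:41911871-41918664) has its window at chr19:41911621-41911870 and Slc16a1 (chr3:104638668-104658462) at chr3:104638414-104638663, both on the forward strand. Pdk3 (chrX:93764607-93832201) has its window at chrX:93832151-93832400 on the reverse strand. The RefSeq start lies 34, 0, 0, 4 and 51 bases from the start of the deposited gene, in that order. The last 34 bases of the Slc2a1 window and the last 51 of the Pdk3 window lie inside the deposited gene. Capitals mark ACGTG or GCGTG on either strand, the core that hypoxia-inducible factors bind, including where it overlaps CACGTG, the E-box bound by factors such as MYC and USF.
Slc2a1: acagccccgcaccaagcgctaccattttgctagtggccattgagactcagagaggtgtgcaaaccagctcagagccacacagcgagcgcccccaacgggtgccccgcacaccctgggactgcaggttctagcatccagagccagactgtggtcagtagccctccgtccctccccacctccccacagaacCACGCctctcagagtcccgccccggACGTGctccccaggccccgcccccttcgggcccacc
Hk2: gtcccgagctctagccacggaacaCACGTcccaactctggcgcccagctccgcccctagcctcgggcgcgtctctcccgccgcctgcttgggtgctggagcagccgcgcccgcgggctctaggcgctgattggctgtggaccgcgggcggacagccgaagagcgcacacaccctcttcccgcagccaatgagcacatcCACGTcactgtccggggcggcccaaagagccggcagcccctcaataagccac
Pgam1: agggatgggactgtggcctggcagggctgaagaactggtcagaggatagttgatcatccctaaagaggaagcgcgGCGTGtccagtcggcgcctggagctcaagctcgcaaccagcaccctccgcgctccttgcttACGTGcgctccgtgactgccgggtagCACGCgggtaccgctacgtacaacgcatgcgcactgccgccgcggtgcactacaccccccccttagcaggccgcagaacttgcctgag
Slc16a1: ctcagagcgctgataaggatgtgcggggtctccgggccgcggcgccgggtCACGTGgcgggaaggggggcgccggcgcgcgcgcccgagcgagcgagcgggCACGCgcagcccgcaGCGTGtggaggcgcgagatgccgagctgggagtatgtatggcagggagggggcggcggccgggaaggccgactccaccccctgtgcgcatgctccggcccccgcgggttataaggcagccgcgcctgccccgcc
Pdk3: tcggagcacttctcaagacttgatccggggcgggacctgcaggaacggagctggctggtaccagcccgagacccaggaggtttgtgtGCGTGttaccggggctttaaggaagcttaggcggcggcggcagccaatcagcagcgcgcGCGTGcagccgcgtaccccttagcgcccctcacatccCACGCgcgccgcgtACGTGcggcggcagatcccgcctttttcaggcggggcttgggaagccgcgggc
The core occurred 2 times in the windows of Slc2a1 and Hk2, 3 times in that of Pgam1, and 4 times in those of Slc16a1 and Pdk3, a palindromic E-box counting on both strands. Of the 15 members with a window among those 16, 14 held the core and Aco1, which fell, did not. Over the 52 members with a window, 37 held the core (71.2%), against 56.7% of the 10645 windows of tested genes and 38.6% of all 32841 windows of the same length. CACGTG occurred in 6 members (11.5%), against 8.79% of windows of tested genes and 6.02% of all windows. A match describes letters in this window and not a bound site. No window was used for Idh3a.

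With riebeckite asbestos 32 of the 53 members passed the test, 22 higher and 10 lower, where 45.3% of all tested genes passed, 21% higher and 24.3% lower. The median difference of the members was 0.07, against -0.02 over all tested genes. Riebeckite fragments gave 18 higher and 8 lower, where 38.4% of all genes passed, 15.3% higher and 23.1% lower. Its lower count was 13 with rescaling to nuclear genes and 5 with sums of transcripts. For tremolite asbestos the counts were 12 higher and 10 lower, with a background of 23.9%, 10% higher and 13.9% lower, and the lower count was 6 with TMM scaling and 5 with sums of transcripts. Tremolite fragments gave 10 higher and 9 lower, with a background of 27.5%, 12.5% higher and 15% lower. The median differences of the members in these last 3 comparisons were 0.03, 0.01 and -0.0011, against -0.04, -0.03 and -0.02 over all genes.

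Counts by pathway are a description with no test between pathways, to be read against 21, 15.3, 10 and 12.5% of all genes higher and 24.3, 23.1, 13.9 and 15% lower. Of the 29 glycolysis genes 17, 12, 10 and 8 rose and 4, 4, 3 and 3 fell with the 4 particles, which is 58.6, 41.4, 34.5 and 27.6% higher and 13.8, 13.8, 10.3 and 10.3% lower, with median differences of 0.20, 0.09, 0.07 and 0.10. Of the 17 TCA genes 3, 3, 1 and 1 rose and 6, 4, 6 and 5 fell, which is 17.6, 17.6, 5.88 and 5.88% higher and 35.3, 23.5, 35.3 and 29.4% lower, with medians of -0.16, -0.13, -0.13 and -0.10. With riebeckite fragments the TCA shares were near those of all genes. Among the 7 pentose phosphate genes 2, 3, 1 and 1 rose and 0, 0, 1 and 1 fell, with medians of 0.05, 0.10, -0.05 and -0.06. The 2 counts of 0 were from limma, and 0 pentose phosphate genes were lower at an unadjusted p under 0.05 in either riebeckite comparison. The share of all genes lower at that unadjusted threshold is not given.

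**Figure D1:**
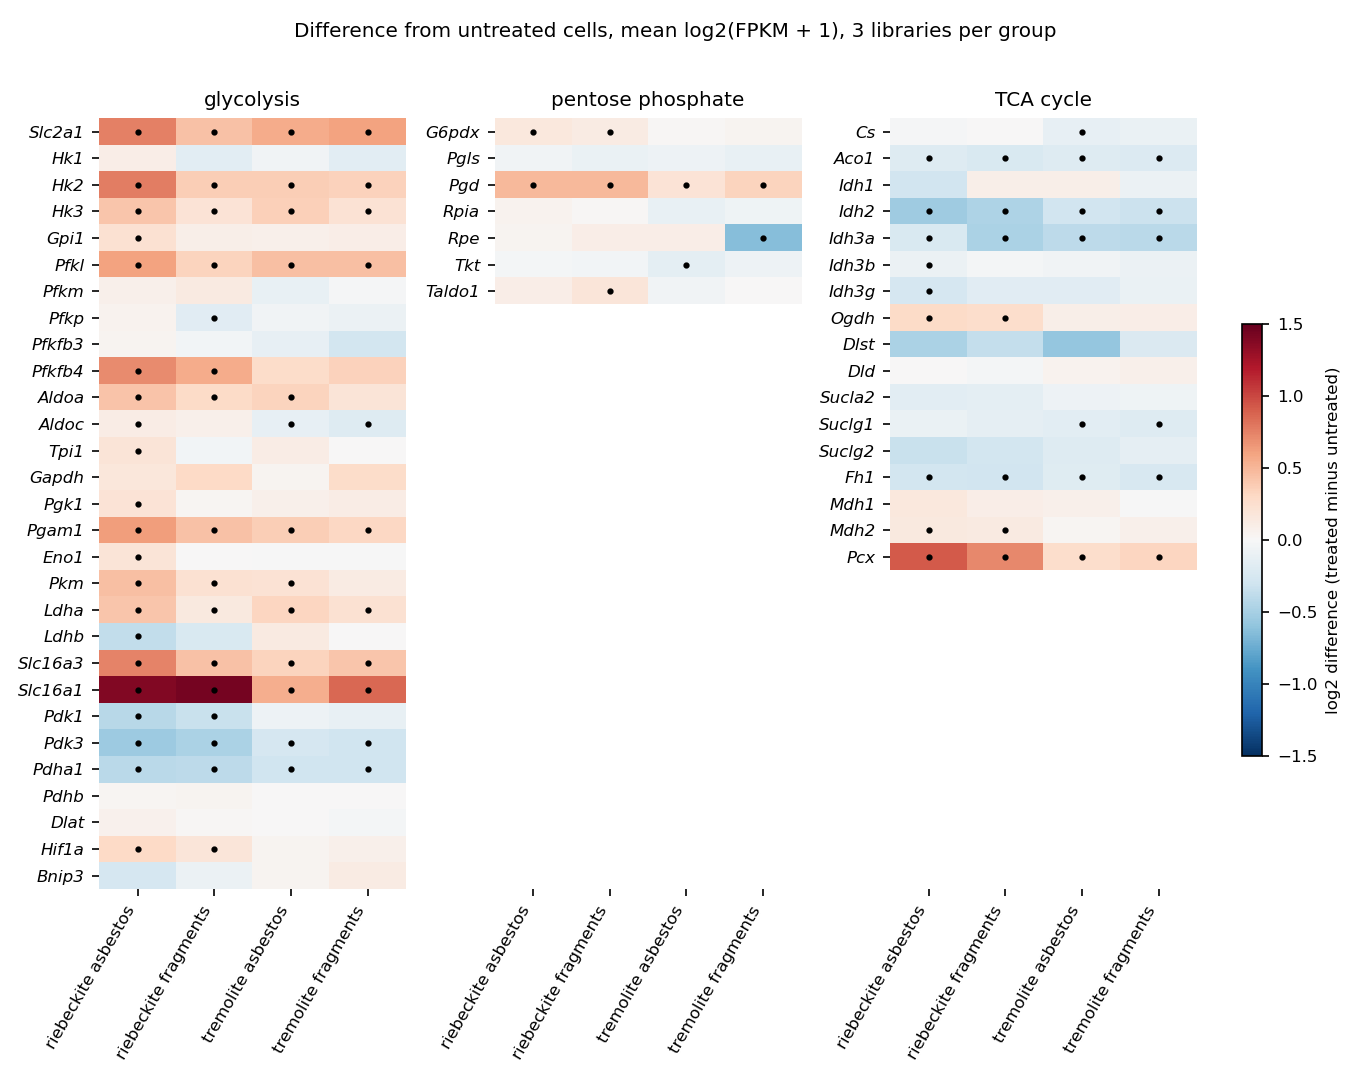
Difference from untreated cells for each of the 53 members (rows, by pathway) and each particle (columns), as mean log2(FPKM + 1) of 3 treated minus 3 untreated libraries, with red for higher, blue for lower and a black point where the limma test passed the threshold. Red is deepest for Slc16a1 under both riebeckite particles (1.38 and 1.44), and Pdk3, Pdha1, Idh2, Idh3a, Aco1 and Fh1 are blue with a point in all 4 columns.

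Of the members of glucose uptake and of its first phosphorylation, Slc2a1, Hk2 and Hk3 rose with all 4 particles and Hk1 passed with none. Slc2a1 encodes GLUT1, the widely expressed glucose transporter. Its level was 20.3, 23.7 and 22.4 FPKM in untreated cells, 35.6, 38.2 and 40.9 with riebeckite asbestos and 29.6, 29.1 and 32.3 with riebeckite fragments. It was 35.7, 33.8 and 29.8 with tremolite asbestos and 34.9, 36.3 and 31.6 with tremolite fragments. Every treated library lay above every untreated one, and riebeckite asbestos also lay above riebeckite fragments without overlap. The differences were 0.76, 0.44, 0.56 and 0.61 (SE 0.078, largest adjusted p = 0.000607). Hk2, the inducible hexokinase that traps glucose as glucose 6-phosphate, was at 16.1, 17.2 and 17.1 FPKM in untreated cells, 29.2, 30.2 and 28.3 with riebeckite asbestos and 22.4, 21.7 and 21.8 with riebeckite fragments. It was at 21.5, 23.1 and 21.5 with tremolite asbestos and 21.8, 22.4 and 20.5 with tremolite fragments. The riebeckite asbestos libraries stood above all other libraries, and the other 3 treated groups lay together between them and the untreated cells. The Hk2 differences were 0.77, 0.37, 0.37 and 0.34 (SE 0.042, largest adjusted p = 4.52e-05). Hk3, a hexokinase of myeloid cells, changed by 0.42, 0.21, 0.35 and 0.21, all 4 past the threshold. Its call with riebeckite fragments was lost without any 1 of the 6 compared libraries except riebeckite fragments replicate 3 and untreated replicate 2 (adjusted p 0.0848 to 0.108), and that with tremolite fragments without any 1 of the 6 compared libraries except tremolite fragments replicate 3 and untreated replicate 2 (adjusted p 0.0623 to 0.137). Hk1, the constitutive hexokinase, passed in no comparison with untreated cells, with differences of 0.10, -0.16, -0.05 and -0.16 (adjusted p = 0.359, 0.156, 0.693 and 0.165).

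At the phosphofructokinase step, the committed step of glycolysis, the liver-type isozyme rose. Pfkl was at 23.0, 25.4 and 22.8 FPKM in untreated cells, 36.2, 37.2 and 36.5 with riebeckite asbestos and 27.7, 29.7 and 32.9 with riebeckite fragments. It was at 35.1, 33.3 and 30.4 with tremolite asbestos and 33.5, 34.3 and 30.9 with tremolite fragments. No treated library reached down to the untreated ones, and the differences were 0.61, 0.33, 0.46 and 0.46 (largest adjusted p = 0.00157). Pfkm, the muscle type, differed by 0.07, 0.14, -0.11 and -0.02 and passed with none, but with riebeckite fragments it passed without untreated replicate 2 or riebeckite fragments replicate 1 (0.21 and 0.20, adjusted p = 0.0187 and 0.0396). Pfkp, the platelet type, differed by 0.06, -0.17, -0.05 and -0.08, and its fall with riebeckite fragments (adjusted p = 0.0298) was lost without any 1 of the 6 compared libraries except riebeckite fragments replicate 1 and riebeckite fragments replicate 3 (adjusted p 0.0610 to 0.125). Summing the deposited transcripts, which covered 49.4% of the Pfkp gene value, gave 0.054 in that comparison (adjusted p = 0.776). Pfkfb4 and Pfkfb3 make fructose 2,6-bisphosphate, the activator of phosphofructokinase. Pfkfb4 was at 5.94, 5.68 and 5.89 FPKM in untreated cells, 8.42, 8.55 and 14.5 with riebeckite asbestos and 9.02, 8.96 and 9.10 with riebeckite fragments. It was at 7.59, 7.09 and 7.24 with tremolite asbestos and 7.53, 7.82 and 7.65 with tremolite fragments. All treated libraries lay above the untreated ones, and replicate 3 of riebeckite asbestos lay far above the other two. Its differences were 0.71, 0.55, 0.28 and 0.34, and the riebeckite comparisons passed (adjusted p = 0.000986, 0.00650, 0.165 and 0.0853). Without that library the tremolite differences, unchanged in size, also passed (adjusted p = 0.000171 and 2.59e-05). Pfkfb3, the lowest member at 2.37 FPKM in untreated cells, was at 2.41, 2.41 and 2.28 FPKM in untreated cells, 1.36, 3.29 and 3.13 with riebeckite asbestos and 2.96, 2.98 and 1.25 with riebeckite fragments. It was at 1.13, 2.95 and 2.47 with tremolite asbestos and 2.06, 1.23 and 2.12 with tremolite fragments. One library near 1 FPKM stood in each treated group, all but tremolite fragments overlapped the untreated cells, and no comparison passed (differences 0.04, -0.04, -0.13 and -0.28, SE 0.28).

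Of the later steps, Pgam1 rose with all 4 particles and Aldoa with 3. Pgam1, phosphoglycerate mutase, was the second highest member and its level was 183, 182 and 177 FPKM in untreated cells, 278, 274 and 286 with riebeckite asbestos and 248.6, 241 and 251 with riebeckite fragments. It was 258, 227 and 219 with tremolite asbestos and 232, 233 and 211 with tremolite fragments. All treated libraries lay above the untreated ones, riebeckite asbestos highest, with differences of 0.62, 0.45, 0.37 and 0.32 (largest adjusted p = 0.000684). Aldoa, the main aldolase and the highest member at 189.9 ± 5.82 FPKM (SD, n = 3) in untreated cells, differed by 0.43, 0.29, 0.33 and 0.20 (adjusted p = 0.000636, 0.0108, 0.00841 and 0.0831), so the comparison with tremolite fragments did not pass. It passed without riebeckite asbestos replicate 2 or tremolite asbestos replicate 3 (0.20, adjusted p = 0.0451 and 0.0295). Aldoc, a second aldolase, rose by 0.11 with riebeckite asbestos and was lower with the tremolite particles (-0.12 and -0.19). The rise of Aldoc was lost without untreated replicate 3 or riebeckite asbestos replicate 1 (adjusted p = 0.0524 and 0.0744), and the fall with tremolite asbestos without tremolite asbestos replicate 3 (adjusted p = 0.0511). With riebeckite fragments Aldoc passed without tremolite fragments replicate 1 (0.08, adjusted p = 0.0402).

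Of the other members at these steps, Tpi1 (triose phosphate isomerase), Pgk1 (phosphoglycerate kinase) and Eno1 (enolase) rose with riebeckite asbestos, by 0.20, 0.20 and 0.19. So did Gpi1 (glucose 6-phosphate isomerase), of the step before phosphofructokinase, by 0.22. None of the 4 passed with another particle, except Pgk1 with tremolite fragments without tremolite fragments replicate 3 (0.17, adjusted p = 0.0188). The Tpi1 call was lost without any 1 of the 6 compared libraries except riebeckite asbestos replicate 1 and untreated replicate 2 (adjusted p 0.0577 to 0.107). That of Eno1 was lost without untreated replicate 2, untreated replicate 3 or riebeckite asbestos replicate 1 (adjusted p = 0.0503, 0.0804 and 0.0617). Gapdh, often used as a reference gene, passed in no comparison, with differences of 0.17, 0.30, 0.04 and 0.28 and a wide spread between libraries (SE 0.16).

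Pkm, pyruvate kinase, was at 128, 133 and 121 FPKM in untreated cells, 174, 171 and 179 with riebeckite asbestos and 156, 148 and 144 with riebeckite fragments. It was at 156, 139 and 149 with tremolite asbestos and 143, 141 and 131 with tremolite fragments. The treated groups were above the untreated one without overlap for all but tremolite fragments, whose lowest library lay within the untreated range. The differences were 0.45, 0.23, 0.21 and 0.12 (adjusted p = 8.76e-06, 0.00282, 0.00747 and 0.104). The tremolite fragments comparison passed without tremolite fragments replicate 3 (0.16, adjusted p = 0.0489). The gene makes an M1 and an M2 form by use of one or the other of 2 exons, and M2 is the form of proliferating and many immune cells. Both exons are 167 bases long on chromosome 9 of GRCm38, M2 at chr9:59675568-59675734 and M1 at chr9:59675029-59675195, forward strand. They are shown because they are what tells the forms apart in short reads, and capitals mark the 64 bases at which they differ.
Pkm M2 exon: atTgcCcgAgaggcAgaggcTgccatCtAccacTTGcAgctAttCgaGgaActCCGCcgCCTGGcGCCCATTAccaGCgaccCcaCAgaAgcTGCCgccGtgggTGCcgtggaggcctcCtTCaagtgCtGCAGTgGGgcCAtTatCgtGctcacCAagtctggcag
Pkm M1 exon: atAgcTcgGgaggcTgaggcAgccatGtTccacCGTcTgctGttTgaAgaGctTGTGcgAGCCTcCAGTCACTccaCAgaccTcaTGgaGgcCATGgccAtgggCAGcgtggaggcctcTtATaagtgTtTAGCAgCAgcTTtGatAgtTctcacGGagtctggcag
The exons share 103 of 167 bases (61.7%). Of the estimates for the transcript with each exon, M2 made up 59.5 to 86.1% in untreated cells and 61.6 to 89.7, 60.9 to 87.5, 56.4 to 88.2 and 50.0 to 57.7% with the 4 particles. In the first 4 groups the share was above 80% in some libraries and near 60% in others. Libraries of 1 group thus spanned much of the range, while the 3 tremolite fragments libraries were all below 58%. In those libraries the M1 estimate was 113, 139 and 109 FPKM, and it was also 127 and 108 in tremolite asbestos replicates 1 and 2. Whether the share differs between groups was not tested.

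Genes of lactate handling held the largest rise of all members. Slc16a1 encodes MCT1, a transporter that carries lactate and other monocarboxylates across the cell membrane. Its level was 8.61, 8.94 and 8.15 FPKM in untreated cells, 23.6, 23.7 and 24.5 with riebeckite asbestos and 26.0, 23.2 and 25.6 with riebeckite fragments. It was 12.7, 12.8 and 13.5 with tremolite asbestos and 17.0, 15.8 and 16.4 with tremolite fragments. The groups did not overlap except riebeckite asbestos with riebeckite fragments, and the order was untreated, tremolite asbestos, tremolite fragments and then both riebeckite particles. The differences were 1.38, 1.44, 0.55 and 0.87 (SE 0.048, largest adjusted p = 2.97e-06), or 2.61- and 2.71-fold for the riebeckite particles on the FPKM + 1 scale. Slc16a3, which encodes the lactate exporter MCT4, was at 8.66, 9.51 and 8.67 FPKM in untreated cells, 15.8, 16.3 and 14.8 with riebeckite asbestos and 12.3, 12.5 and 12.5 with riebeckite fragments. It was at 12.8, 11.54 and 10.2 with tremolite asbestos and 12.9, 12.3 and 11.6 with tremolite fragments. Riebeckite asbestos stood above all other groups and all treated libraries above the untreated ones, with differences of 0.74, 0.43, 0.33 and 0.41 (largest adjusted p = 0.00340).

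Lactate dehydrogenase makes lactate from pyruvate. Ldha, its main subunit gene here, was at 92.3, 88.9 and 86.2 FPKM in untreated cells, 122, 118 and 119 with riebeckite asbestos and 96.1, 99.0 and 101 with riebeckite fragments. It was at 119.7, 104 and 111 with tremolite asbestos and 109, 104 and 102 with tremolite fragments. No treated library overlapped the untreated ones, and the differences were 0.42, 0.14, 0.32 and 0.23 (adjusted p = 7.51e-06, 0.0242, 0.000218 and 0.00188). The call with riebeckite fragments was lost without any 1 of the 6 compared libraries except riebeckite fragments replicate 1 and untreated replicate 1 (adjusted p 0.0593 to 0.0939). Ldhb, the heart-type subunit, was at 3.87, 4.17 and 4.64 FPKM in untreated cells, 3.32, 3.40 and 2.51 with riebeckite asbestos and 3.51, 3.78 and 3.10 with riebeckite fragments. It was at 5.502, 3.97 and 4.79 with tremolite asbestos and 4.37, 3.91 and 4.41 with tremolite fragments. Both riebeckite groups lay below the untreated one, and the fall with asbestos passed (difference -0.36, adjusted p = 0.0145), and the call was lost without untreated replicate 3 or riebeckite asbestos replicate 3 (adjusted p = 0.0615 and 0.0673). Its other differences, -0.23, 0.13 and 0.00, did not pass.

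Where pyruvate enters mitochondria, the pyruvate dehydrogenase subunit Pdha1 and the inhibitory kinase Pdk3 fell with all 4 particles. Pdha1, the catalytic alpha subunit, was at 40.2, 40.4 and 40.2 FPKM in untreated cells, 29.2, 30.8 and 30.9 with riebeckite asbestos and 29.5, 30.0 and 32.3 with riebeckite fragments. It was at 32.0, 33.4 and 32.6 with tremolite asbestos and 32.5, 31.5 and 33.3 with tremolite fragments. All treated libraries lay well below the narrow untreated range (differences -0.40, -0.39, -0.30 and -0.30, SE 0.037, largest adjusted p = 8.16e-05). Pdk3, a kinase that turns the complex off, was at 12.5, 12.5 and 13.02 FPKM in untreated cells, 8.06, 8.68 and 8.40 with riebeckite asbestos and 8.76, 9.38 and 8.45 with riebeckite fragments. It was at 10.2, 10.98 and 10.2 with tremolite asbestos and 9.94, 10.2 and 10.2 with tremolite fragments. Again no treated library reached the untreated ones, and the riebeckite groups were lowest (differences -0.54, -0.47, -0.25 and -0.29, largest adjusted p = 0.00110). Pdk1, a kinase with the same role and a known target of hypoxia-inducible factors, was at 13.5, 14.1 and 13.7 FPKM in untreated cells, 9.05, 10.6 and 10.5 with riebeckite asbestos and 10.5, 10.6 and 11.1 with riebeckite fragments. It was at 13.4, 13.01 and 12.5 with tremolite asbestos and 13.1, 12.8 and 12.1 with tremolite fragments. It fell with the riebeckite particles (adjusted p = 2.95e-05 and 0.000268), and the tremolite differences of -0.08 and -0.11 did not pass, although those libraries also lay just below the untreated ones. Pdhb, the beta subunit, and Dlat, the acetyltransferase core, passed in none of the 4 comparisons (differences 0.03, 0.05, 0.01 and 0.01 for Pdhb and 0.07, 0.02, 0.00 and -0.03 for Dlat).

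Hif1a, the oxygen-regulated transcription factor subunit that drives many glycolytic genes, was at 25.6, 27.2 and 28.47 FPKM in untreated cells, 33.8, 31.6 and 34.8 with riebeckite asbestos and 30.3, 32.8 and 29.6 with riebeckite fragments. It was at 26.4, 28.9 and 28.4 with tremolite asbestos and 28.8, 28.3 and 28.9 with tremolite fragments. Its libraries were higher than untreated ones without overlap for both riebeckite particles (differences 0.29 and 0.18, adjusted p = 0.000438 and 0.0125) and overlapped them for both tremolite particles. The call with riebeckite fragments was lost without untreated replicate 1 or riebeckite fragments replicate 2 (adjusted p = 0.0557 and 0.0573). Bnip3, a mitophagy receptor and hypoxia target, was at 7.29, 7.57 and 7.45 FPKM in untreated cells, 4.56, 6.93 and 6.998 with riebeckite asbestos and 5.90, 7.10 and 7.84 with riebeckite fragments. It was at 8.53, 6.72 and 7.83 with tremolite asbestos and 8.91, 7.62 and 8.02 with tremolite fragments. Replicate 1 of riebeckite asbestos was lowest, and no comparison passed (differences -0.26, -0.09, 0.04 and 0.12).

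Of 25 further hypoxia response genes 19 could be tested, and 6, 2, 4 and 3 rose while 2, 5, 3 and 1 fell with the 4 particles. That is 31.6, 10.5, 21.1 and 15.8% higher and 10.5, 26.3, 15.8 and 5.26% lower, beside 21, 15.3, 10 and 12.5% and 24.3, 23.1, 13.9 and 15% of all genes. Mxi1, a MYC antagonist, rose by 0.32, 0.43, 0.36 and 0.44, and Ero1l, an oxidase of the endoplasmic reticulum, by 0.35, 0.27, 0.28 and 0.35. Ndrg1, a stress-responsive gene, fell with all 4, with differences of -1.12, -0.77, -0.57 and -0.68 from 2.83 ± 0.341 FPKM in untreated cells. Epas1, which encodes HIF-2 alpha, was lower with riebeckite asbestos and tremolite asbestos (-0.24 and -0.11, adjusted p = 5.51e-05 and 0.0266). Of 41 other glycolysis and pyruvate genes 27 were tested, with 6, 3, 1 and 1 higher (22.2, 11.1, 3.70 and 3.70%) and 6, 7, 3 and 5 lower (22.2, 25.9, 11.1 and 18.5%), and with riebeckite asbestos these shares were near those of all genes. Bsg, the chaperone that brings MCT1 and MCT4 to the membrane, rose by 0.56, 0.51, 0.28 and 0.41 (largest adjusted p = 0.00523). Slc2a6, a lysosomal hexose transporter, changed by -0.57, -0.997, -0.38 and -0.56, and Adpgk, an ADP-dependent glucokinase, by -0.38, -0.41, -0.34 and -0.38. Pdp1, the phosphatase that turns pyruvate dehydrogenase on, was lower with riebeckite asbestos, riebeckite fragments and tremolite fragments (-0.40, -0.38 and -0.21), and its difference of -0.11 with tremolite asbestos did not pass.

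**Figure D2:**
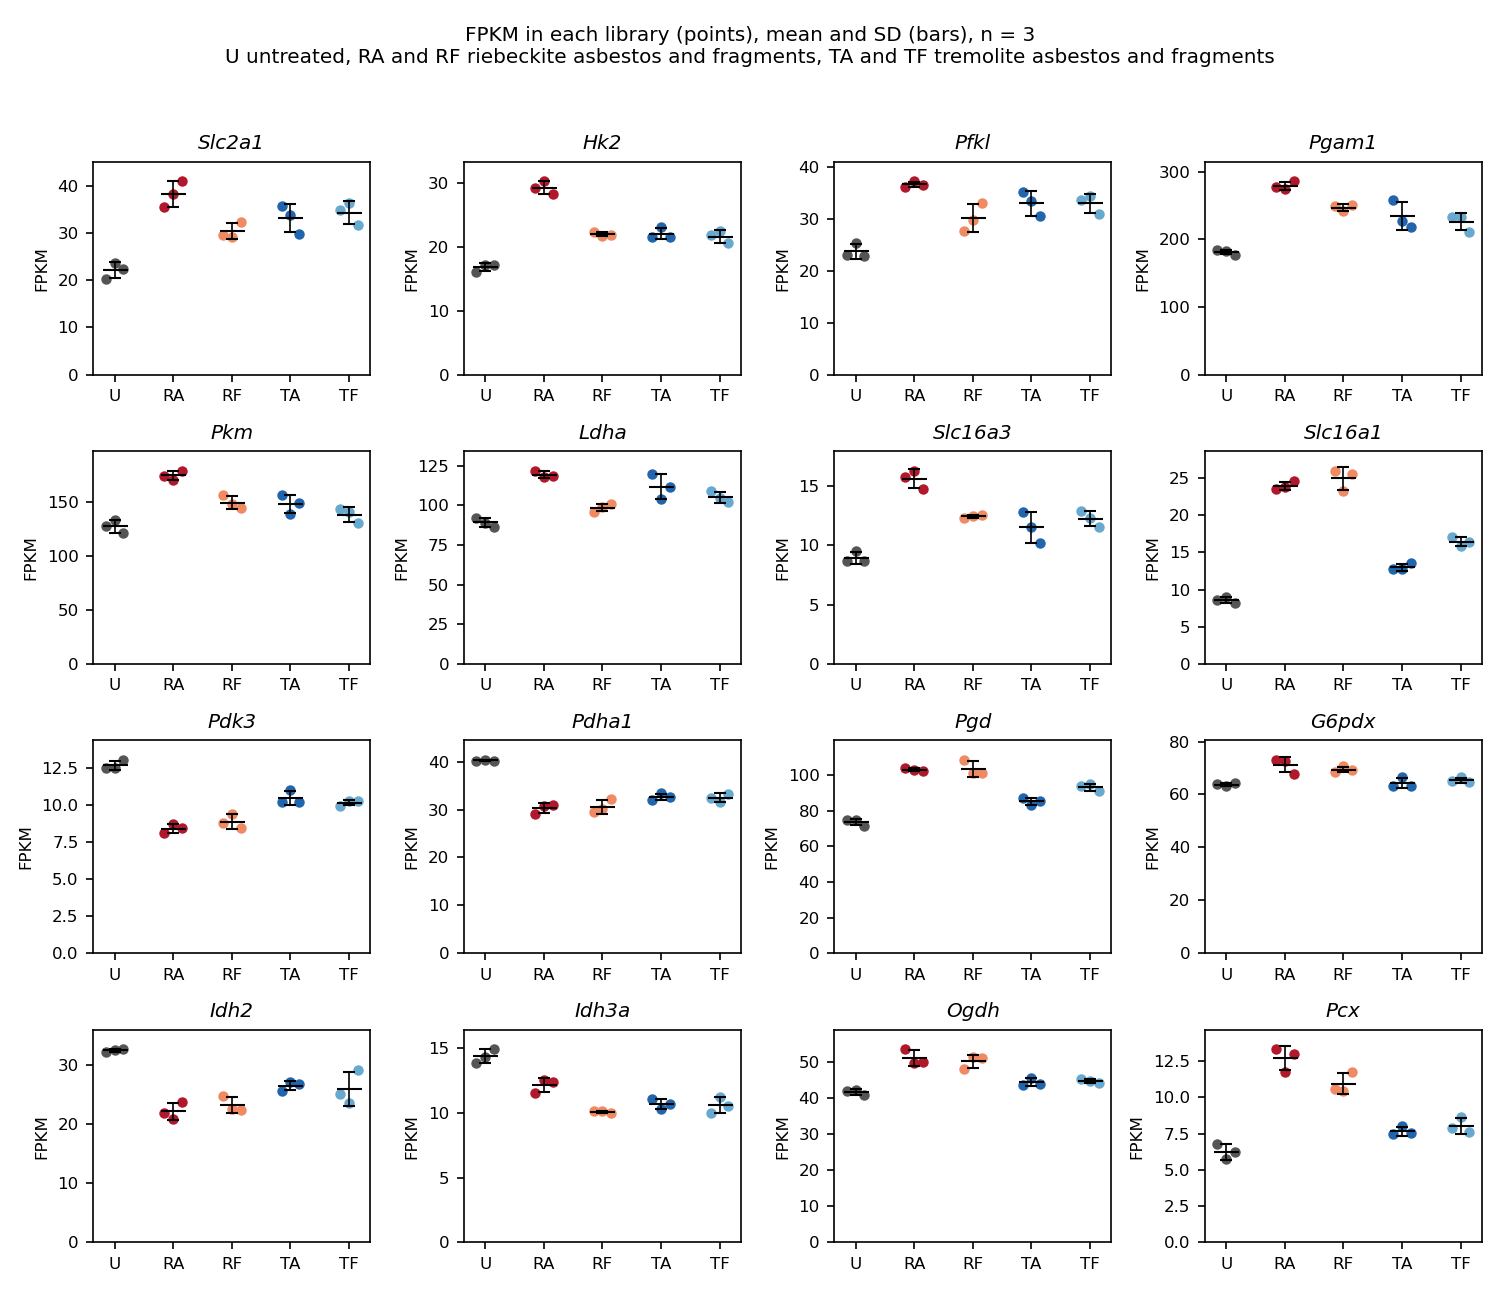
FPKM of 16 members in each of the 15 libraries (points) with the group mean and SD (black bars, n = 3), each vertical axis starting at 0. Slc16a1 separates into 4 levels with both riebeckite groups on top, Hk2 and Slc16a3 are highest with riebeckite asbestos, and Pdk3, Pdha1, Idh2 and Idh3a are highest in untreated cells.

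In the pentose phosphate pathway 1 gene, that of the second oxidative step, rose with all 4 particles. Pgd, 6-phosphogluconate dehydrogenase, which makes NADPH and ribulose 5-phosphate, was at 74.6, 74.6 and 71.5 FPKM in untreated cells, 104, 103 and 102 with riebeckite asbestos and 109, 101 and 101 with riebeckite fragments. It was at 87.1, 83.0 and 85.7 with tremolite asbestos and 93.8, 94.8 and 90.8 with tremolite fragments. The untreated, tremolite asbestos and tremolite fragments groups were stepped without overlap below the riebeckite groups, which overlapped each other. The differences were 0.48, 0.49, 0.21 and 0.34 (SE 0.033, largest adjusted p = 0.000496). G6pdx, glucose 6-phosphate dehydrogenase, the first and rate-limiting step, was at 63.9, 63.0 and 64.2 FPKM in untreated cells, 73.1, 72.8 and 67.9 with riebeckite asbestos and 68.5, 70.6 and 69.1 with riebeckite fragments. It was at 63.1, 66.6 and 63.3 with tremolite asbestos and 65.3, 66.5 and 64.6 with tremolite fragments. It was higher than untreated cells without overlap for the riebeckite particles (differences 0.16 and 0.12, adjusted p = 0.00143 and 0.00958). The tremolite differences, 0.01 and 0.04, did not pass, and tremolite fragments lay just above the untreated range. Pgls, the lactonase between both steps, passed in none (differences -0.05, -0.10, -0.08 and -0.11).

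The non-oxidative arm returns pentoses to glycolysis. Tkt, transketolase, was at 65.8, 63.3 and 59.8 FPKM in untreated cells, 64.0, 59.4 and 62.0 with riebeckite asbestos and 63.3, 60.1 and 60.2 with riebeckite fragments. It was at 54.4, 57.0 and 59.0 with tremolite asbestos and 59.5, 60.4 and 58.8 with tremolite fragments. It was lower with tremolite asbestos (difference -0.15, adjusted p = 0.0221), a call lost without untreated replicate 1, untreated replicate 2 or tremolite asbestos replicate 1 (adjusted p = 0.0910, 0.0659 and 0.0909), and passed with no other particle. Taldo1, transaldolase, rose by 0.18 with riebeckite fragments (adjusted p = 0.00698), and Rpia, ribose 5-phosphate isomerase, passed against untreated cells in none (differences 0.05, 0.02, -0.11 and -0.06). Rpe, ribulose 5-phosphate epimerase, was at 37.3, 37.8 and 39.5 FPKM in untreated cells and at 19.4, 17.4 and 41.2 with tremolite fragments. The first 2 of those libraries lay far below the untreated ones and the last lay above them, so the groups overlapped although the difference passed (-0.64, adjusted p = 0.0411). The Rpe call was lost without any 1 of the 6 compared libraries except tremolite fragments replicate 3 (adjusted p 0.0801 to 0.172). It was also lost without any 1 library outside the comparison (adjusted p 0.0511 to 0.0520). The sum of transcripts, which covered 74.8% of the gene value, gave 0.17 (adjusted p = 0.901). Of 7 other pentose phosphate genes tested, 2, 1, 0 and 1 rose and 2, 1, 1 and 1 fell, where 21, 15.3, 10 and 12.5% of all genes were higher and 24.3, 23.1, 13.9 and 15% lower. H6pd, a glucose 6-phosphate dehydrogenase of the endoplasmic reticulum, rose by 0.75, 0.54 and 0.29 with riebeckite asbestos, riebeckite fragments and tremolite fragments, and its difference with tremolite asbestos was 0.14 (adjusted p = 0.125).

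Among TCA genes Idh2, Idh3a, Aco1 and Fh1 fell and Pcx rose with all 4 particles. Idh2, the mitochondrial NADP-dependent isocitrate dehydrogenase, was at 32.1, 32.5 and 32.7 FPKM in untreated cells, 21.8, 20.9 and 23.7 with riebeckite asbestos and 24.7, 22.5 and 22.4 with riebeckite fragments. It was at 25.6, 27.1 and 26.8 with tremolite asbestos and 25.1, 23.5 and 29.1 with tremolite fragments. No treated library reached the untreated range, and the riebeckite groups were lowest on average (differences -0.53, -0.47, -0.28 and -0.32, SE 0.067, largest adjusted p = 0.00776). Idh3a, the catalytic subunit of the NAD-dependent enzyme of the cycle, was at 13.8, 14.3 and 14.9 FPKM in untreated cells, 11.54, 12.6 and 12.3 with riebeckite asbestos and 10.1, 10.1 and 9.99 with riebeckite fragments. It was at 11.04, 10.3 and 10.7 with tremolite asbestos and 9.98, 11.3 and 10.5 with tremolite fragments. Treated libraries all lay below the untreated ones, and riebeckite asbestos, above the other treated groups, had the smallest fall (differences -0.22, -0.47, -0.40 and -0.41, largest adjusted p = 0.00176). The partner subunits Idh3b and Idh3g fell with riebeckite asbestos (-0.09 and -0.25), and the Idh3b call was lost without any 1 of the 6 compared libraries except untreated replicate 2 (adjusted p 0.0521 to 0.101). Idh3g differed by -0.17 and -0.17 with riebeckite fragments and tremolite asbestos, and passed without riebeckite asbestos replicate 1, riebeckite fragments replicate 3 or tremolite fragments replicate 3 (-0.17, -0.25 and -0.17, adjusted p = 0.0492, 0.00323 and 0.0489) and without riebeckite fragments replicate 3 (-0.17, adjusted p = 0.0197), respectively. Idh3b passed with tremolite fragments without riebeckite fragments replicate 1 or tremolite asbestos replicate 2 (-0.09, adjusted p = 0.0415 and 0.0449). Idh1, the cytosolic NADP-dependent form, was at 175, 184 and 112 FPKM in untreated cells, 147, 145 and 92.2 with riebeckite asbestos and 165, 166 and 158 with riebeckite fragments. It was at 165, 163 and 159.9 with tremolite asbestos and 169, 169 and 105 with tremolite fragments. In untreated cells, riebeckite asbestos and tremolite fragments replicate 3 lay far below the other two, and no comparison passed (differences -0.29, 0.09, 0.08 and -0.09, SE 0.22).

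At the entry of the cycle, Cs, citrate synthase, was at 48.6, 47.2 and 45.8 FPKM in untreated cells, 48.5, 45.1 and 46.5 with riebeckite asbestos and 47.4, 45.1 and 49.3 with riebeckite fragments. It was at 44.4, 42.8 and 42.1 with tremolite asbestos and 43.2, 45.5 and 43.0 with tremolite fragments. Both tremolite groups lay below the untreated one, and the fall with asbestos passed (difference -0.13, adjusted p = 0.0358), but that call was lost without any 1 of the 6 compared libraries except tremolite asbestos replicate 1 and untreated replicate 3 (adjusted p 0.0860 to 0.119). Aco1, the cytosolic aconitase that doubles as iron regulatory protein 1, was at 36.3, 36.5 and 35.6 FPKM in untreated cells, 31.0, 31.3 and 32.2 with riebeckite asbestos and 30.4, 30.0 and 31.8 with riebeckite fragments. It was at 31.5, 31.5 and 31.7 with tremolite asbestos and 30.3, 32.3 and 31.4 with tremolite fragments. All 12 treated libraries lay below the 3 untreated ones, at nearly the same level for the 4 particles (differences -0.19, -0.23, -0.19 and -0.20, largest adjusted p = 0.000679).

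Ogdh, the first subunit of the oxoglutarate dehydrogenase complex, was at 42.0, 42.2 and 40.7 FPKM in untreated cells, 53.5, 49.6 and 49.9 with riebeckite asbestos and 48.1, 51.4 and 51.0 with riebeckite fragments. It was at 43.5, 45.6 and 43.9 with tremolite asbestos and 45.3, 44.7 and 44.2 with tremolite fragments. It was raised with the riebeckite particles (differences 0.29 and 0.26, adjusted p = 2.84e-05 and 7.87e-05) and did not pass with the tremolite particles (0.09 and 0.10, adjusted p = 0.0992 and 0.0553), whose libraries were nonetheless all above the untreated ones. With tremolite fragments Ogdh passed without riebeckite asbestos replicate 1 or riebeckite fragments replicate 1 (0.10, adjusted p = 0.0326 and 0.0398). The other subunits, Dlst and Dld, did not pass against untreated cells, except Dld with tremolite fragments without riebeckite asbestos replicate 1 (0.07, adjusted p = 0.0485). Of the succinyl-CoA ligase subunits, Suclg1 fell with the tremolite particles (-0.16 and -0.19), calls lost without any 1 of the 6 compared libraries except tremolite asbestos replicate 3 and untreated replicate 1 (adjusted p 0.0527 to 0.140) and without untreated replicate 3 or tremolite fragments replicate 2 (adjusted p = 0.0536 and 0.0503). With riebeckite fragments Suclg1 passed without untreated replicate 1, riebeckite fragments replicate 2, tremolite asbestos replicate 1 or tremolite fragments replicate 3 (-0.16, -0.16, -0.13 and -0.13, adjusted p = 0.0383, 0.0331, 0.0444 and 0.0453). Sucla2 and Suclg2 did not pass against untreated cells (differences -0.16, -0.15, -0.07 and -0.07 for Sucla2), but Sucla2 passed with riebeckite asbestos without riebeckite asbestos replicate 3 (-0.24, adjusted p = 0.00421) and with riebeckite fragments without riebeckite asbestos replicate 1 or riebeckite asbestos replicate 3 (-0.15, adjusted p = 0.0165 and 0.0281).

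Fh1, fumarase, was at 16.6, 16.5 and 16.5 FPKM in untreated cells, 13.5, 14.1 and 13.1 with riebeckite asbestos and 13.4, 13.3 and 13.3 with riebeckite fragments. It was at 14.6, 14.8 and 14.03 with tremolite asbestos and 14.1, 13.5 and 14 with tremolite fragments. The 12 treated libraries lay below the untreated ones (differences -0.27, -0.29, -0.18 and -0.24, largest adjusted p = 0.00164). Mdh2, the mitochondrial malate dehydrogenase, was higher with the riebeckite particles (0.15 and 0.13), but these calls were lost without untreated replicate 2, untreated replicate 3 or riebeckite asbestos replicate 1 (adjusted p = 0.0589, 0.0598 and 0.0577) and without untreated replicate 2, untreated replicate 3 or riebeckite fragments replicate 1 (adjusted p = 0.106, 0.107 and 0.122), respectively. Mdh1, the cytosolic form, did not pass in any comparison with untreated cells (differences 0.16, 0.10, 0.07 and 0.00), but passed with riebeckite asbestos without riebeckite asbestos replicate 1, tremolite asbestos replicate 2 or tremolite asbestos replicate 3 (0.20, 0.16 and 0.16, adjusted p = 0.0431, 0.0294 and 0.0478).

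Pcx, pyruvate carboxylase, which fills the cycle by turning pyruvate into oxaloacetate, rose against the direction of most TCA calls. It was at 6.76, 5.72 and 6.21 FPKM in untreated cells, 13.3, 11.7 and 13.01 with riebeckite asbestos and 10.6, 10.4 and 11.7 with riebeckite fragments. It was at 7.44, 7.996 and 7.52 with tremolite asbestos and 7.88, 8.61 and 7.58 with tremolite fragments. Riebeckite asbestos and riebeckite fragments touched each other and were far above all others, and the tremolite libraries lay just above the untreated ones. The differences were 0.92, 0.72, 0.26 and 0.32 (SE 0.067, adjusted p = 1.57e-07, 2.26e-06, 0.0125 and 0.00294), and the call with tremolite asbestos was lost without untreated replicate 2 (adjusted p = 0.0599).

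Of 20 other TCA and exchange genes tested, 7, 4, 1 and 1 rose and 6, 5, 3 and 4 fell. That is 35, 20, 5 and 5% higher and 30, 25, 15 and 20% lower, beside 21, 15.3, 10 and 12.5% and 24.3, 23.1, 13.9 and 15% of all genes, and with riebeckite fragments the shares were near these. Acly, ATP citrate lyase, which takes citrate into lipid synthesis, fell with all 4 particles, with differences of -0.60, -0.58, -0.40 and -0.58 from 143 ± 4.18 FPKM in untreated cells (largest adjusted p = 1.63e-05). Glud1, glutamate dehydrogenase, changed by -0.45, -0.39, -0.28 and -0.33, and Sdha, the flavoprotein of succinate dehydrogenase, by -0.11, -0.14, -0.12 and -0.11, all past the threshold. Slc25a1, the mitochondrial citrate carrier, rose by 0.36 with riebeckite asbestos and 0.23 with riebeckite fragments.

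Isozyme shares within enzyme families were compared with untreated cells. The size of a share also rests on the annotated exon length, which was 6675 bases for Pfkl and 13401 for Pfkp. Of summed hexokinase FPKM, Hk2 held 32.4% ± 0.979 (SD, n = 3) in untreated cells and 41.2% ± 0.972, 38.4% ± 1.37, 36.4% ± 1.48 and 38.0% ± 1.89 with the particles. Hk1 went from 39.3% to 30.8, 31.8, 32.3 and 31.8%. Pfkl held 65.6% ± 0.583 of phosphofructokinase FPKM in untreated cells and 73.7% ± 0.573, 71.7% ± 1.41, 73.7% ± 1.54 and 73.6% ± 1.57 with the particles. For aldolase, Aldoa went from 75.8% to 79.6, 78.4, 81.1 and 80.4%. None of these treated groups overlapped the untreated one. The exact 2-sided permutation p was 0.1 in each, the smallest that 3 against 3 libraries allow, so none can pass 0.05. Ldha held 95.5% of lactate dehydrogenase FPKM in untreated cells and 97.5, 96.6, 95.9 and 96.1% with the particles (exact permutation p = 0.1, 0.1, 0.4 and 0.2).

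The habit of the mineral was compared directly within each mineral. Between riebeckite asbestos and riebeckite fragments, 10 members were higher with asbestos and 0 lower in limma, where 10.6% of all genes passed, 6.71% higher and 3.85% lower. At an unadjusted p under 0.05, 16 were higher and 0 lower. The share of all genes at that threshold is not given, so these unadjusted counts are a description only. The 10 became 6 in a fit of only these groups, 4 with sums of transcripts, and 4, 6 and 5 without riebeckite asbestos replicate 2, riebeckite fragments replicate 1 and riebeckite fragments replicate 2. The 10 were 9 glycolysis genes (31.0% of the 29) and Idh3a, and none belonged to the pentose phosphate pathway. Hk2 differed by 0.40 (95% interval 0.31 to 0.49, adjusted p = 0.000143), Ldha by 0.27 (0.17 to 0.37, adjusted p = 0.00302) and Idh3a by 0.25 (0.14 to 0.35, adjusted p = 0.00624), and these 3 calls held when any 1 library was left out. The other 7 did not. Slc2a1 (0.32) was lost without any 1 of the 6 compared libraries except riebeckite asbestos replicate 1 and riebeckite fragments replicate 3 (adjusted p 0.0545 to 0.0722). Pfkl (0.28) was lost without any 1 of the 6 compared libraries except riebeckite asbestos replicate 3 and riebeckite fragments replicate 3 (adjusted p 0.0527 to 0.0724). Pfkp (0.23) was lost without riebeckite asbestos replicate 2, riebeckite asbestos replicate 3 or riebeckite fragments replicate 2 (adjusted p = 0.0516, 0.0798 and 0.0883). Tpi1 (0.23) was lost without any 1 of the 6 compared libraries except riebeckite asbestos replicate 1 (adjusted p 0.0572 to 0.140). It was also lost without some single libraries outside the comparison (adjusted p 0.0503 to 0.0552). Pgk1 (0.17) was lost without any 1 of the 6 compared libraries (adjusted p 0.0652 to 0.156), and without some single libraries outside the comparison (adjusted p 0.0548 to 0.0630). Pkm (0.22) was lost without riebeckite fragments replicate 3 (adjusted p = 0.0524). Slc16a3 (0.31) was lost without riebeckite asbestos replicate 2 (adjusted p = 0.0539). Slc16a1 and Pgd, both raised by both riebeckite particles, differed between them by -0.05 (95% interval -0.16 to 0.05) and -0.01 (-0.08 to 0.07), which did not pass.

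Between tremolite asbestos and tremolite fragments 1 member passed, Slc16a1, which was lower with asbestos (difference -0.32, adjusted p = 0.00786), where 0.942% of all genes passed, 0.386% higher and 0.556% lower. The call was lost without tremolite fragments replicate 1 (adjusted p = 0.0515). Limma gave 0 members higher, and at an unadjusted p under 0.05 1 was higher and 2 were lower. The unadjusted share of all genes is again not given. Rpe was higher without tremolite fragments replicate 3 (1.12, adjusted p = 1.45e-06). Quantile scaling and rescaling to nuclear genes gave 2 members lower, and a fit of only these groups 0. The 95% interval of the difference was -0.06 to 0.12 for Hk2, -0.01 to 0.19 for Ldha, -0.21 to 0.09 for Pcx and -0.22 to 0.12 for Slc2a1.

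The difference between the asbestos effect in riebeckite and that in tremolite passed for 2 members, Hk2 and Slc16a3, where 3.93% of all genes passed, 2.65% above and 1.28% below 0. Hk2 was 0.37 (95% interval 0.24 to 0.50, adjusted p = 0.00562) and Slc16a3 0.39 (0.18 to 0.60, adjusted p = 0.0431). Asbestos minus fragments was 0.40 for Hk2 and 0.31 for Slc16a3 in riebeckite, and 0.03 and -0.08 in tremolite, where neither passed. The Slc16a3 call was lost without any 1 of the 12 compared libraries except riebeckite asbestos replicate 3, tremolite asbestos replicate 1 and tremolite fragments replicate 3 (adjusted p 0.0653 to 0.0984), and without any 1 of the 3 untreated libraries (adjusted p 0.0503 to 0.0557). With TMM scaling, quantile scaling, only the groups compared or sums of transcripts 1 member passed. Pgk1 passed without tremolite fragments replicate 3 (0.26, adjusted p = 0.0448), Ldha without tremolite asbestos replicate 1 (0.24, adjusted p = 0.0477) and Slc16a1 without riebeckite fragments replicate 1 (0.29, adjusted p = 0.0468). No member had a difference of effects below 0 that passed in limma, and 1 did at an unadjusted p under 0.05. Rpe did without tremolite fragments replicate 3 (-1.17, adjusted p = 2.43e-05). The share of all genes at the unadjusted threshold is not given.

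The minerals were compared directly within each habit. With asbestos, 17 members were higher and 4 lower in riebeckite than in tremolite, where 26.5% of all genes passed, 15.5% higher and 11% lower. The 17 included 5 of the 7 pentose phosphate genes, 9 glycolysis genes and 3 TCA genes. Slc16a1 was higher by 0.83 (95% interval 0.73 to 0.94, adjusted p = 3.48e-07), Pcx by 0.66 (0.51 to 0.81), Slc16a3 by 0.41, Hk2 by 0.39, Pgd by 0.27 and Hif1a by 0.25. G6pdx (0.15), Pgam1 (0.25), Pkm (0.24), Aldoc (0.23) and Ogdh (0.20) were also higher. Lower in riebeckite were Ldhb (-0.50), Pdk1 (-0.34), Pdk3 (-0.29) and Idh2 (-0.25). The 17 became 11 in a fit of only these groups, and the 4 became 2 with sums of transcripts. Of these 21 calls 14 held when any 1 library was left out. Pfkfb4 (0.43) was lost without tremolite asbestos replicate 1, tremolite asbestos replicate 2 or tremolite asbestos replicate 3 (adjusted p = 0.0596, 0.0908 and 0.0857). Eno1 (0.20) was lost without riebeckite asbestos replicate 1, riebeckite asbestos replicate 2 or tremolite asbestos replicate 2 (adjusted p = 0.0845, 0.0628 and 0.113). Rpia (0.16) was lost without any 1 of the 6 compared libraries except riebeckite asbestos replicate 1 and tremolite asbestos replicate 2 (adjusted p 0.0731 to 0.132). Tkt (0.12) was lost without any 1 of the 6 compared libraries except riebeckite asbestos replicate 2 and tremolite asbestos replicate 3 (adjusted p 0.0938 to 0.175). It was also lost without some single libraries outside the comparison (adjusted p 0.0582 to 0.0647). Taldo1 (0.16) was lost without riebeckite asbestos replicate 1, tremolite asbestos replicate 2 or tremolite asbestos replicate 3 (adjusted p = 0.0960, 0.1005 and 0.0505). Idh2 was lost without riebeckite asbestos replicate 1 or riebeckite asbestos replicate 2 (adjusted p = 0.0504 and 0.0587). Idh3a (0.17) was lost without riebeckite asbestos replicate 2, riebeckite asbestos replicate 3 or tremolite asbestos replicate 2 (adjusted p = 0.0626, 0.0538 and 0.0627). Slc2a1 (0.20, 95% interval 0.03 to 0.37) and Ldha (0.10, 0.00 to 0.20) did not pass, but Slc2a1 passed without tremolite asbestos replicate 1 (0.26, adjusted p = 0.0429) and Ldha without tremolite asbestos replicate 1 (0.15, adjusted p = 0.0224).

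With cleavage fragments, 7 members were higher and 3 lower in riebeckite than in tremolite, where 11.3% of all genes passed, 5.31% higher and 6.01% lower. A fit of only these groups gave 4 higher and 1 lower, and sums of transcripts 1 lower. Without tremolite fragments replicate 3, 4 were higher and 1 lower, 0 were lower without riebeckite fragments replicate 1 or tremolite fragments replicate 2, and 1 without riebeckite fragments replicate 3 or tremolite fragments replicate 1. Slc16a1 (0.57, 95% interval 0.47 to 0.68, adjusted p = 9.90e-06), Pcx (0.40, 0.26 to 0.55) and Aldoc (0.27, 0.20 to 0.34) were higher whichever library was left out. Pgd (0.15) was lost without tremolite fragments replicate 3 (adjusted p = 0.0557). Ogdh (0.16) was lost without tremolite fragments replicate 3 (adjusted p = 0.0515). Taldo1 (0.18) was lost without riebeckite fragments replicate 1, tremolite fragments replicate 1 or tremolite fragments replicate 3 (adjusted p = 0.105, 0.0576 and 0.107). Rpe (0.74) was lost without any 1 of the 6 compared libraries except tremolite fragments replicate 3 (adjusted p 0.0894 to 0.158). It was also lost without any 1 library outside the comparison (adjusted p 0.0554 to 0.0597), and its sum of transcripts gave -0.71 (adjusted p = 0.585). Lower with riebeckite fragments were Pdk1 (-0.23), lost without riebeckite fragments replicate 1, tremolite fragments replicate 1 or tremolite fragments replicate 2 (adjusted p = 0.0656, 0.0654 and 0.0600), and Pdk3 (-0.18), lost without any 1 of the 6 compared libraries except riebeckite fragments replicate 2 and tremolite fragments replicate 1 (adjusted p 0.0742 to 0.0781). The last was Dld (-0.10), the shared lipoamide dehydrogenase, lost without any 1 of the 6 compared libraries (adjusted p 0.0534 to 0.127). Outside the comparison it was lost at least without untreated replicate 2 (adjusted p = 0.0540). Hk2 differed by 0.02 (-0.07 to 0.12) and Slc2a1 by -0.17 (-0.34 to 0.00), neither past the threshold.

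**Figure D3:**
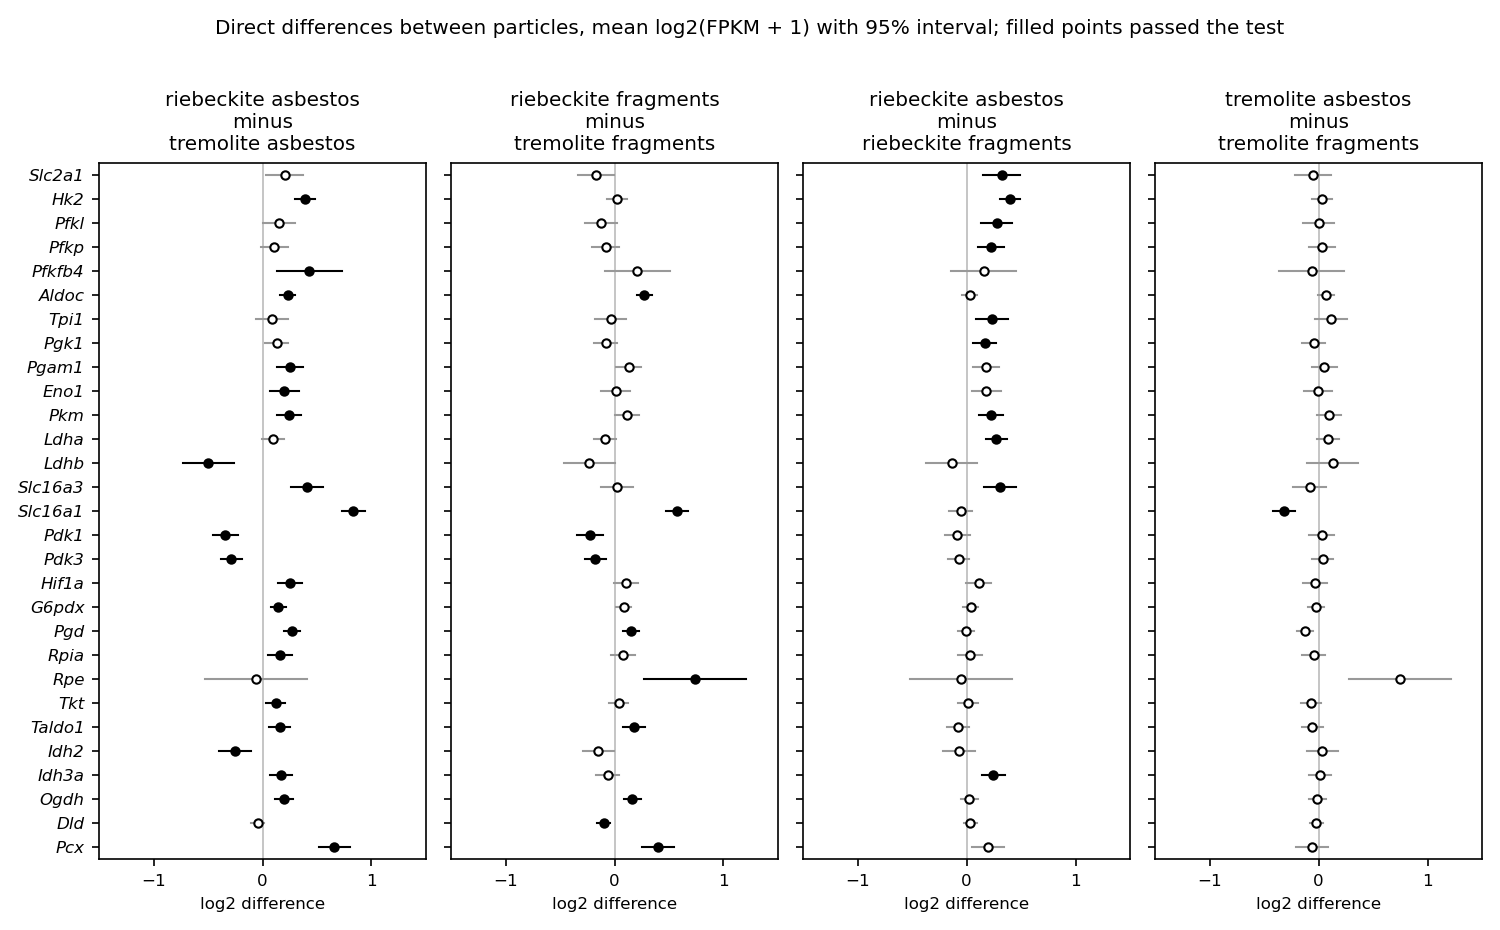
Difference of mean log2(FPKM + 1) with its 95% interval for the members called in at least 1 of the 4 direct comparisons between particles, 3 libraries per group, filled points where the limma test passed. Filled points are frequent for riebeckite asbestos against tremolite asbestos (21) and few for tremolite asbestos against tremolite fragments (1, Slc16a1), and Slc16a1 lies at 0.83 and 0.57 in the comparisons of minerals.

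Some member values switched between levels within groups of 3 libraries. Dlst, the succinyltransferase of the oxoglutarate dehydrogenase complex, was at 7.88, 18.8 and 8.05 FPKM in untreated cells, and its differences were -0.47, -0.36, -0.58 and -0.21 (SE 0.26). Suclg2, the GTP-specific subunit of succinyl-CoA ligase, was at 16.8, 11.03 and 18.4 with riebeckite asbestos and 19.3, 10.9 and 18.5 with riebeckite fragments. Replicate 2 was high for Dlst in untreated cells, and low for Suclg2 in both riebeckite groups. The transcript table held 133 transcripts of the members, 22 members having 1 each, and 72 had a mean of at least 5 FPKM. Of these 72, 5 were listed at 0 in some library. Gapdh-201 was listed at 177, 0 and 209.7 FPKM in untreated cells and 0, 172 and 0 with riebeckite asbestos, while Gapdh-203 stood at 188, 245 and 147 and 313, 255 and 318. Ldha-201 and Ldha-210 traded places between libraries of the same group, at 16.9, 20.3 and 158 and 161, 154 and 23.3 with riebeckite asbestos. Sucla2-201, of the ATP-specific ligase subunit, was listed at 0 in most libraries and above 22 FPKM in the rest. An entry of 0 may be an estimate that failed. Of 127 member transcripts tested, 17, 12, 8 and 8 were higher and 4, 5, 5 and 6 lower with the 4 particles, where 13%, 10.3%, 5.02% and 6.29% of all transcripts passed.

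**Figure D4:**
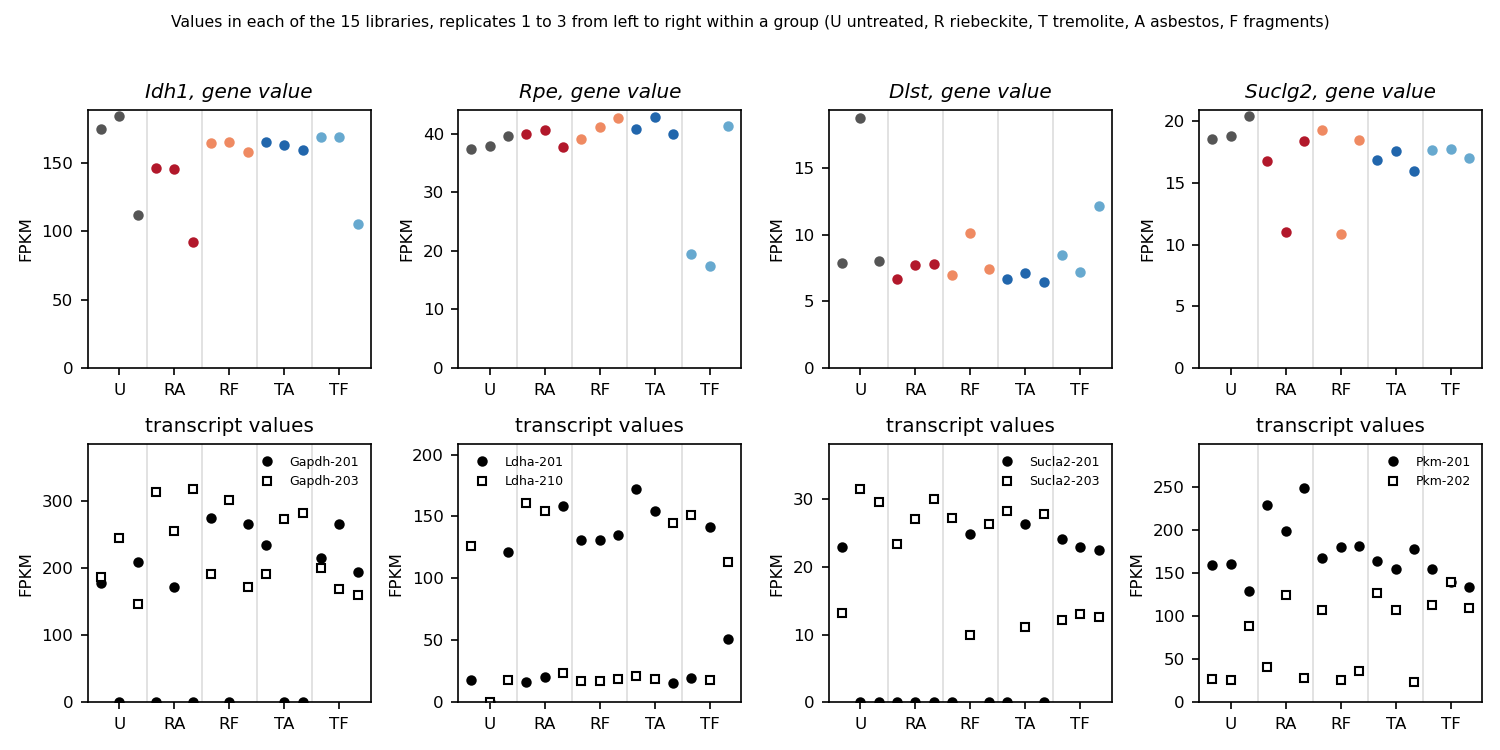
FPKM in each of the 15 libraries (horizontal axis, replicates 1 to 3 from left to right within each group) for the gene values of Idh1, Rpe, Dlst and Suclg2 (top) and for pairs of transcripts of Gapdh, Ldha, Sucla2 and Pkm (bottom, circles and squares). Libraries of the same group fall on separate levels, as for Idh1 at 175, 184 and 112 FPKM in untreated cells, and Gapdh-201 and Sucla2-201 lie at 0 in several libraries.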

How the data were processed

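RNA of 15 libraries of MPI cells was enriched with oligo(dT) beads and its second strand was made with dUTP, per the labels' protocols. The submitters' processing notes name GRCm38, HISAT2, StringTie and cutadapt. Versions, settings and the annotation were not given in the sources used here. FPKM were deposited by the authors for 10653 genes and 22795 transcripts. The unit was inferred from the values. A check used 448 genes with several annotated transcripts, all of them listed, and a mean of at least 1 FPKM. Of their 6717 gene values, 99.3% were within 2% of the length-weighted sum of transcripts over the union of annotated GENCODE M21 exons. Gene levels were therefore read as per union exon length. The members were not among these genes. Their listed transcripts covered from 26.1% (Pfkfb4) to 100% (Slc16a1) of the gene value, so sums of transcripts can leave out part of a gene. Counts could not be recovered, so no count test was run and no counting interval is given. FPKM are relative, so abundant transcripts move the rest.

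Groups came from the labels. A gene needed at least 0.5 FPKM in 3 libraries, which 10616 met. Testing used limma 3.58.1 under R 4.3.3 on log2(FPKM + 1) values (1 fit of all libraries by group, eBayes with trend), with Benjamini-Hochberg adjustment in each comparison. Isozyme shares were tested by exact 2-sided permutation, written out in Python 3.11.15. All 53 members are named whatever their p. Every library is given for up to 5 largest rises and falls per comparison with untreated cells among called members without overlap, and for 15 members in any case. Further lists give up to 4 genes each with the smallest p. Members and lists were chosen with earlier results of these data known. No 2 libraries held identical values, and the code was tested on simulated data. Alternatives were TMM scaling (trimmed mean of M values, its published algorithm written out and run on FPKM), quantile scaling, rescaling to nuclear genes, a pseudocount of 0.1, no filter, a mean of at least 5 FPKM, a replicate block, only the groups compared, sums of transcripts and omission of each library.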

Additional observations from a re-analysis of the deposited data

Results flagged for a closer look

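For 2 members the effect of asbestos against fragments differed between the minerals by a test of that difference (limma, 53 members within 10616 genes). Hk2 gave 0.37 on the log2 scale (SE 0.060, adjusted p = 0.00562), with 0.40 in riebeckite and 0.03 in tremolite. All 3 riebeckite asbestos libraries (29.2, 30.2 and 28.3 FPKM) lay above all 3 riebeckite fragments libraries (22.4, 21.7 and 21.8 FPKM), while the tremolite groups overlapped. Slc16a3 gave 0.39 (SE 0.097, adjusted p = 0.0431), with 0.31 in riebeckite and -0.08 in tremolite, and it was lost without any 1 of the 12 compared libraries except riebeckite asbestos replicate 3, tremolite asbestos replicate 1 and tremolite fragments replicate 3 (adjusted p 0.0653 to 0.0984), and without any 1 of the 3 untreated libraries (adjusted p 0.0503 to 0.0557).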

How the results depend on the processing

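Of the recomputed differences of single members, 11015 stayed on their side of the threshold, 287 no longer passed and 116 newly passed. Changes of sign among differences that passed in neither fit are within the 11015. A further 3 that had passed changed sign, all with sums of transcripts. They were Pfkp with riebeckite fragments against untreated cells (0.054), Rpe with tremolite fragments against untreated cells (0.17) and Rpe between the fragments (-0.71). The deposited transcripts covered 49.4% of the gene value of Pfkp and 74.8% of that of Rpe. The cause of the 3 changes of sign was not tested. Counts of members called that moved by over 1.5 times were as follows. With sums of transcripts, 5 were lower with riebeckite fragments and 5 with tremolite asbestos, 4 were higher with riebeckite asbestos than with its fragments, 2 were lower in riebeckite than tremolite asbestos and 1 in riebeckite than tremolite fragments. Rescaling to nuclear genes gave 13 lower with riebeckite fragments and 2 lower with tremolite asbestos than with its fragments, quantile scaling 2 for the latter, and TMM 6 lower with tremolite asbestos. A fit of only the groups compared, with fewer libraries to estimate the spread, gave 6 higher with riebeckite asbestos than its fragments, 0 lower with tremolite asbestos than its fragments, 11 higher in riebeckite than tremolite asbestos, and 4 higher and 1 lower in riebeckite than tremolite fragments. The difference of asbestos effects passed for 1 member with TMM, quantile scaling, only the groups compared or sums of transcripts.

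Omission of 1 library gave 4 to 12 members higher with riebeckite asbestos than its fragments, 0 to 1 higher and 0 to 1 lower with tremolite asbestos than its fragments, 4 to 7 higher and 0 to 3 lower in riebeckite than tremolite fragments, and 1 to 3 above and 0 to 1 below 0 for the difference of asbestos effects. Isozyme shares from sums of transcripts were above those of untreated cells by 6.27, 3.43, 6.81 and 5.49 percentage points for Pfkl, by 1.18 and 0.651 for Ldha with the riebeckite particles, and for Aldoa by 1.93 with riebeckite fragments and by 3.74 and 3.48 with the tremolite particles, asbestos first. With the replicate number as a block, 22 members were higher and 10 lower with riebeckite asbestos, 18 and 9 with riebeckite fragments, 12 and 10 with tremolite asbestos and 11 and 10 with tremolite fragments. Whether the numbers pair the libraries cannot be told from these values. Same-numbered libraries correlated above 0.1 in 3 of 30 cases, with a median of 0.0186 against -0.0162 for differently numbered ones. The ranges overlapped, at -0.0613 to 0.172 for same-numbered and -0.126 to 0.106 for differently numbered libraries. Of 15 libraries 8 correlated best on average with their own number, which describes the data and not the design. Read depth is unknown, and small differences rest on the spread of 3 libraries.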
